A study of Mus musculus with 6 samples.

Results

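Colonic mucosa of Foxo4 knockout mice was compared with that of wild-type mice on day 2 of a colitis provoked by trinitrobenzenesulfonic acid (TNBS). The comparison set 1 pool of 5 knockout mice (Foxo4_KO) against 1 pool of 5 wild-type mice (WT), each hybridised to 1 Illumina bead array. It covered the genes whose detection score, which is 1 minus the detection p-value against background, reached 0.99 on at least 1 of the 2 arrays. This rule kept 8626 of the 8940 genes detected on any of the study's 6 arrays. Of these, 6966 were detected in both TNBS pools, 1576 in the Foxo4_KO pool alone and 84 in the WT pool alone.

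The study pooled mucosa of 5 mice in each of 6 groups, which were WT and Foxo4_KO mice left untreated, given a 50% ethanol enema, or given TNBS in 50% ethanol. All mice were FVB/N6 and 8 weeks old, and both enema groups were sampled on day 2. The labels state 250 mg of TNBS without the weight or volume it refers to. The knockout allele, the tissues in which it is deleted and the sex of the mice are not given in the labels. As each group was 1 pool, the difference between genotypes has no replicate check, and every value below is a normalized log2 signal or a log2 difference (Foxo4_KO minus WT) without an SD or a p-value. The only measure of error came from genes with several probes. In 2574 pairs of probes of 1 gene, both detected in the TNBS pools, the log2 differences disagreed by a median of 0.19 and by 0.77 at the 95th percentile, which leaves out the spread between mice. These pairs were of all genes, and probes of some genes at least 2-fold apart disagreed by more, such as those of Ccl4 (3.30 and 0.43).

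FoxO proteins are forkhead transcription factors that insulin and growth factor signalling, through the kinase Akt, keeps out of the nucleus. They are known for their part in cell cycle arrest, metabolism and resistance to stress. In TNBS colitis, ethanol opens the epithelial barrier and TNBS couples to proteins of the mucosa, which makes them targets for immune cells, and the acute phase is known for neutrophils, chemokines and antimicrobial proteins.

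The Foxo4_KO TNBS array stood apart from the others. Its Pearson correlations over genes with them were 0.960 to 0.979, where all other pairs of arrays had 0.981 to 0.991. Its mean deposited signal was 277, against 225 to 237 elsewhere, and 14363 probes were detected on it, against 11181 to 13127. Of the 8940 genes, 510 were detected on this array alone (5.91% of the 8626 detected in a TNBS pool), against 8 to 130 on each of the others, and 2 of the 510 were at least 2-fold higher in it, Ccl3 and Stfa2. Xist, the RNA that coats the inactive X chromosome of female cells, read 6.61 (WT) and 7.24 (Foxo4_KO) after TNBS, 9.68 and 10.25 in the untreated pools and 6.63 and 6.62 in the ethanol pools of the same genotypes. The second probe of Xist was below background on all 6 arrays (6.49 and 6.48 after TNBS). Probes of the Y-linked genes Kdm5d, Eif2s3y and Uty were below background on all arrays, except a Kdm5d probe on the Foxo4_KO TNBS array. That probe read 6.57 (WT) and 6.62 (Foxo4_KO) after TNBS, 6.45 and 6.46 in the untreated pools and 6.58 and 6.60 in the ethanol pools. Whether the pools differed in sex was not tested, which also limits values set side by side across treatments. The Foxo4_KO TNBS array could not be left out of the comparison, so its part in the results was not tested.

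The targeted gene gave no check of the labels. The 1 probe for Foxo4 was below background in the WT TNBS pool (6.50) and in the Foxo4_KO TNBS pool (6.46), as on the other 4 arrays. Foxo1 read 7.05 and 7.07 and Foxo3 6.88 and 6.88 in these pools. Of 24 genes listed as targets of FoxO factors, 14 were detected, 1 was past 2-fold on the lower side and 0 on the higher, and their median difference was −0.06 (0.20 when the arrays were scaled to 1 median, or 0.06 below the median gene there). The lower gene was Btg1, an antiproliferative protein, which read 9.10 in WT and 7.49 in Foxo4_KO. Its second probe read 8.86 and 7.49. The Krüppel-like factors Klf6 (11.92 in WT and 12.66 in Foxo4_KO, with a second probe at 6.96 and 6.83) and Klf2 (6.74 and 7.24), the repressor Bcl6 (7.13 and 7.76) and the cell cycle inhibitor Cdkn1a (10.77 and 10.25) differed by less than 2-fold.

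The highest genes included S100a9, S100a8, Il1b and Ccl4 of inflammation and the Paneth cell genes Defa31 and Lyz1, and the lowest included the reductase Cbr2, the methyltransferase Prmt1 and the water channel Aqp8. Of the 8626 genes, 106 (1.23%) were at least 2-fold higher in the Foxo4_KO pool and 49 (0.568%) at least 2-fold lower, 1.8% together. The median gene differed by 0.01 and the middle 90% of genes by −0.49 to 0.51. Of the 106 higher genes, 100 were above background in both pools, and the other 6 were not above background in the WT pool. For these a fold is given as a lower bound, against the higher of the gene's own WT signal and the lowest signal of any detected probe on that array, 6.67. All 49 lower genes were above background in both pools. The balance of higher and lower genes depended on the scaling: 68.4% of the genes at least 2-fold apart were higher after quantile normalization and 98.4% after median scaling, which moved the median gene to 0.258. At the edge of the call, Cmpk2 (1.006) and B3gnt7 (−1.001) lay just inside, and Pus3 (0.999) and Bola3, which was lower by just under 2-fold, just outside. At the edge of detection, 503 genes had a higher score of 0.99 to 0.9919 and differed by −0.19 to 0.13, and 132 genes just below had 0.9881 to 0.9894 and −0.13 to 0.09.

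**Figure D1:**
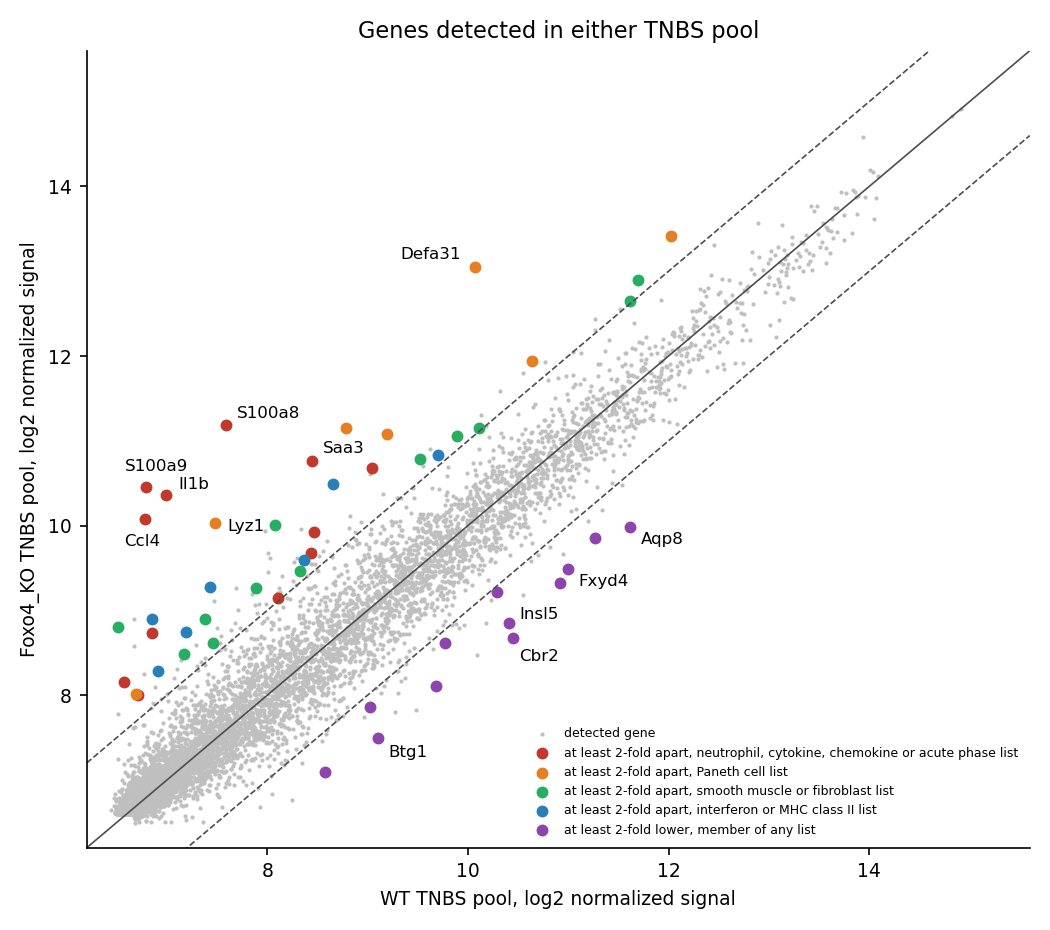
Normalized log2 signal of each of the 8626 genes in the WT TNBS pool (x axis) and the Foxo4_KO TNBS pool (y axis), with the line of equal signal (solid) and lines of 2-fold difference (dashed). Genes at least 2-fold apart that belong to a list are coloured (red inflammatory, orange Paneth cell, green smooth muscle or fibroblast, blue interferon or MHC class II, purple any list on the lower side), and S100a9, S100a8, Il1b and Ccl4 lie farthest above the line of equal signal.

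The calprotectin genes of neutrophils led the comparison. S100a9 and S100a8, which form calprotectin, the metal-binding antimicrobial complex of neutrophils, were 12.7-fold and 12.2-fold higher in the Foxo4_KO pool. Where 3 values are given for a genotype, they are those of the untreated, the ethanol and the TNBS pool in this order. S100a9 read 6.50, 6.61 and 6.79 across the WT pools and 6.48, 6.48 and 10.45 across the Foxo4_KO pools. S100a8 read 6.46, 7.34 and 7.59 across the WT pools and 6.49, 6.51 and 11.19 across the Foxo4_KO pools. For both genes the Foxo4_KO TNBS pool was the high one of the 6, and the deposited signals before normalization were 127.6 and 1915 for S100a9 and 282.1 and 3054 for S100a8 in WT and Foxo4_KO TNBS pools. Retnlg, a resistin-like protein of neutrophils, read 6.71 in WT and 8.00 in Foxo4_KO (2.46-fold).

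The rest of the neutrophil list was dim. Of 20 neutrophil genes 18 had a probe, 9 were detected and 3 were at least 2-fold higher. The 6 others were Fpr2, a chemotactic receptor (at least 1.34-fold higher), the iron-binding Ltf (6.76 and 6.99), the gelatinase Mmp9 (6.71 and 6.92), the lectin receptors Clec4d (at least 1.07-fold) and Clec4e (6.53 and 6.66), and the growth factor receptor Csf3r (6.56 and 6.62). Below background in both TNBS pools were the granule genes Mpo, Elane, Ngp, Camp and Mmp8, the chemokine receptor Cxcr2, the integrins Itgam and Itgb2, and Trem1. The summed normalized signal of the list was 992 in WT and 4696 in Foxo4_KO, and S100a8 and S100a9 made up most of the Foxo4_KO sum. Ptprc, the common leukocyte antigen, was below background with all 4 probes. In these bulk pools, fewer cells of a type and less RNA per cell cannot be told apart.

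Interleukin-1 beta and chemokines of myeloid cells stood beside calprotectin. Il1b, the fever cytokine released by inflammasomes, read 6.53, 6.72 and 6.99 across the WT pools and 6.58, 6.59 and 10.36 across the Foxo4_KO pools (10.3-fold in TNBS, deposited signals 169.4 and 1806). Among 23 cytokines 10 were detected, and only Il1b passed 2-fold. Tnf, Il6, Il17a, Il22, Ifng, Csf2, Csf3 and Il10 were below background in both TNBS pools. Il33, an alarmin of barrier cells, read 6.84 and 7.26, and Il18, an inflammasome cytokine that epithelium makes at rest, 10.11 and 10.33. The summed signal of the cytokine list was 2017 in WT and 3458 in Foxo4_KO, a difference that was mostly that of Il1b.

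Of 32 chemokine ligands, 20 were detected, 4 were at least 2-fold higher and 0 lower, with a median difference of 0.25. Ccl4, which draws monocytes and T cells, read 6.78 (WT) and 10.08 (Foxo4_KO) after TNBS (9.88-fold) and 6.51 to 6.68 in the other 4 pools. Its second probe read 6.50 and 6.93, so the probes gave differences of 3.30 and 0.43. Ccl3, which also draws monocytes, was detected in the Foxo4_KO TNBS pool alone, at 8.16 against 6.57 in WT (at least 2.8-fold). Cxcl1, which draws neutrophils through Cxcr2, read 6.57, 6.74 and 6.85 across the WT pools and 6.62, 6.83 and 8.73 across the Foxo4_KO pools (3.67-fold in TNBS). The TNBS pool of Foxo4_KO mice was again the high one for all of these.

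Other chemokines differed less or along with the ethanol pools. Cxcl12, a chemokine of stromal cells, read 8.11 in WT and 9.15 in Foxo4_KO after TNBS, and 7.84 and 9.20 after ethanol. Ccl9 read 7.40 and 8.17, and Ccl21a, which guides cells along lymphatic vessels, 6.77 and 7.40. Cxcl2 was near background (6.44 and 6.65), and Ccl2, Cxcl5, Cxcl10 and Ccl20 were below it in both pools. Genes of the NF-kB pathway, which switches on many inflammatory genes, lay closer together: of 23 genes 14 were detected and 0 passed 2-fold in either direction, with a median of 0.22. The largest differences were those of the kinase Ikbkb (9.80 and 10.69, with a second probe at 6.97 and 7.03), the nuclear inhibitor Nfkbiz (9.64 and 10.44) and the feedback enzyme Tnfaip3 (7.46 and 8.22).

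**Figure D2:**
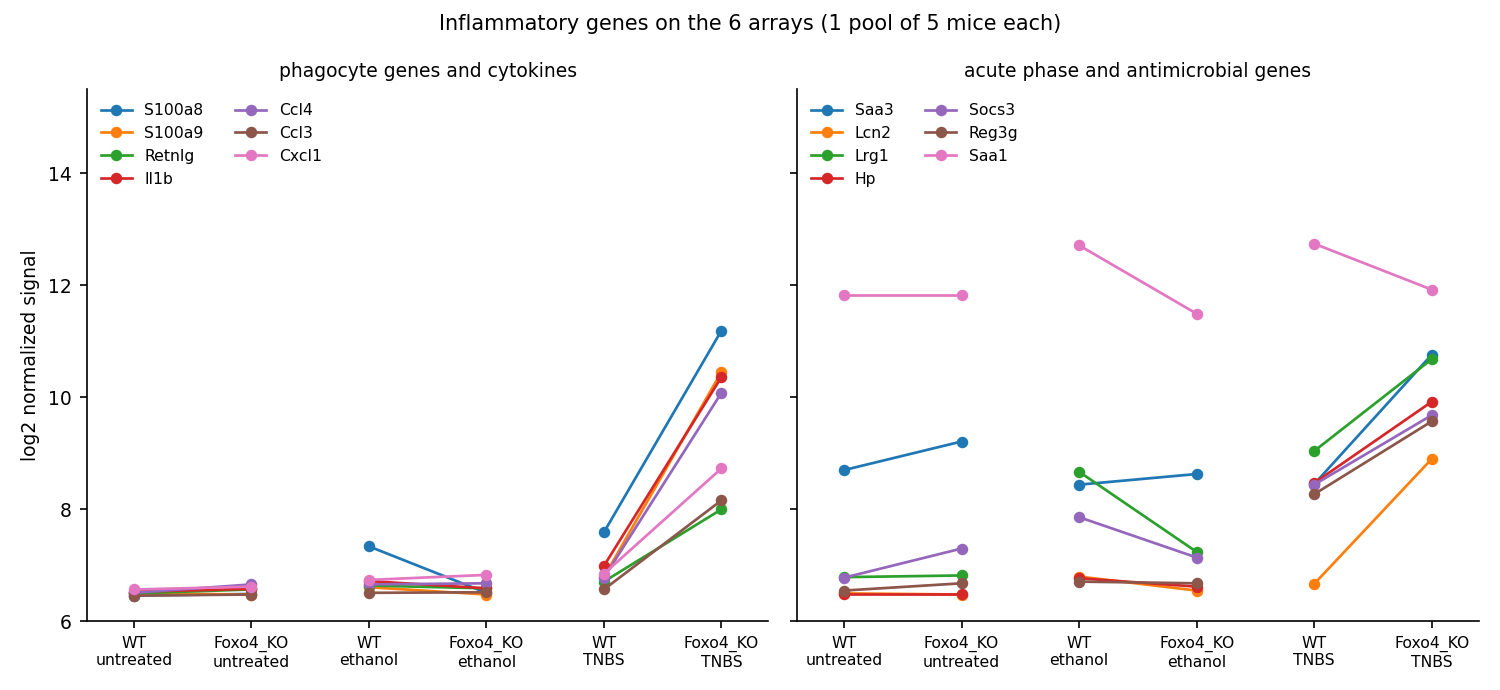
Normalized log2 signal of 14 inflammatory genes in the 6 pools, with lines joining the WT and Foxo4_KO pools of each treatment. S100a8, S100a9, Il1b, Ccl4, Ccl3 and Cxcl1 stand out in the Foxo4_KO TNBS pool, while Saa1 is lower there (11.92) than in the WT TNBS pool (12.74).

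Acute phase genes were split. Of 21 acute phase genes and targets of the factor STAT3, 12 were detected, 4 reached 2-fold upwards and 0 downwards, with a median of 0.38 and summed signals of 9841 in WT and 10910 in Foxo4_KO. Saa3, the serum amyloid A protein of inflamed tissue and macrophages, read 8.70, 8.44 and 8.45 across the WT pools and 9.21, 8.63 and 10.76 across the Foxo4_KO pools (4.93-fold in TNBS). Its relatives stood the other way: Saa1 read 12.74 in WT and 11.92 in Foxo4_KO, and Saa2 8.17 and 7.51. Probes of Saa1 and Saa2 may share transcripts, since both genes are near copies of each other. Haptoglobin (Hp), which binds free haemoglobin, read 8.47 and 9.92 (2.73-fold), with a dim second probe at 6.77 and 6.90. Lrg1, a leucine-rich glycoprotein, read 6.79, 8.67 and 9.04 across the WT pools and 6.82, 7.24 and 10.68 across the Foxo4_KO pools, so it was higher in the Foxo4_KO pool after TNBS (1.64) and lower after ethanol (−1.43). Socs3, the feedback inhibitor of STAT3, read 8.44 and 9.68 (2.35-fold). Cebpb, a factor that drives acute phase genes, was 0.86 higher. Serpina3n, a protease inhibitor of the acute phase outside this list, read 9.02 and 10.61 after TNBS, and 8.41 and 10.07 after ethanol.

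Secreted antimicrobial proteins of the gut followed in part. Of 15 genes 10 were detected and 3 were at least 2-fold higher, with a median of 0.46. Lcn2, which withholds bacterial siderophores, read 6.50, 6.80 and 6.67 across the WT pools and 6.48, 6.55 and 8.90 across the Foxo4_KO pools. It was not above background in the WT TNBS pool, so its fold after TNBS is a lower bound (at least 4.66-fold). Reg3g, a lectin that binds Gram-positive bacteria, read 8.27 and 9.57 (2.47-fold), against 6.55 to 6.71 in the 4 pools without TNBS. Reg3b, its close relative, read 13.94 and 14.58 with the brighter probe and 8.43 and 10.29 with the second, so the probes gave 0.64 and 1.86. Duoxa2, which matures the epithelial oxidase Duox2, read 9.03 and 9.96. Pglyrp1 (12.90 and 13.17) and Pigr, which carries immunoglobulin A into the lumen (12.22 and 12.15), hardly differed, and Wfdc2 (13.43 and 13.01) and Slpi (7.63 and 7.35), protease inhibitors, were slightly lower.

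The sequence before the transcription start is shown for the genes at either end of the comparison that a motif search turned on. These are the 3 highest genes with an entry, the highest gene holding each of 6 motifs, and the lowest gene holding the FoxO letters, each as the 250 bases before the most upstream start (RefSeq, GRCm38.p6), read 5′ to 3′ on the gene's strand. Capitals mark a motif match on either strand. S100a9 (chr3:90695722-90695971, minus strand) holds C/EBP letters from base −236, counted from the start. S100a8 (chr3:90668821-90669070, plus strand) and Il1b (chr2:129371140-129371389, minus strand) hold none of the motifs. Saa3 (chr7:46715677-46715926, minus strand) holds the interferon-stimulated response element, ISRE, from −125 and C/EBP letters from −99. Ifit2 (chr19:34550444-34550693, plus strand) holds STAT letters from −241. Cxcl1 (chr5:90890995-90891244, plus strand) holds overlapping NF-kB matches from −71 and −70. Rsad2 (chr12:26456453-26456702, minus strand) holds FoxO letters from −212, the ISRE from −120 and AP-1 letters from −87. Btg1 (chr10:96616751-96617000, plus strand), the lower gene of the FoxO targets, holds FoxO letters from −204.
S100a9: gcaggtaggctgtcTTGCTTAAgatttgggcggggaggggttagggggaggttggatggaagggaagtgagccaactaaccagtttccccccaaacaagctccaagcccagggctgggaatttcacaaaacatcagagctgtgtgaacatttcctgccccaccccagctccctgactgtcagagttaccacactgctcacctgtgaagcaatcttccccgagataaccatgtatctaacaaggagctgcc
S100a8: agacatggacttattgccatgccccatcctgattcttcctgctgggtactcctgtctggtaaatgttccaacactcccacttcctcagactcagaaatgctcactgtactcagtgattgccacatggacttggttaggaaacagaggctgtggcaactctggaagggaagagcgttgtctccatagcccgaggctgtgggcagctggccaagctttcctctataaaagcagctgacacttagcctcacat
Il1b: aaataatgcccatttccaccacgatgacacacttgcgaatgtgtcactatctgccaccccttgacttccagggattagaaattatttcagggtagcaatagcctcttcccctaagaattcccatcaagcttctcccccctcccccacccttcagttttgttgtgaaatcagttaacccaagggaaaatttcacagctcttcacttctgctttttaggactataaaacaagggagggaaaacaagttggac
Saa3: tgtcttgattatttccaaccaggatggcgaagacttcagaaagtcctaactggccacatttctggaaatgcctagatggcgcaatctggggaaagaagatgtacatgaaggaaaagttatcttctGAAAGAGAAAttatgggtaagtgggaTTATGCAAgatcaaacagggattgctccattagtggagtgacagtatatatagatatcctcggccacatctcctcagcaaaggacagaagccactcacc
Ifit2: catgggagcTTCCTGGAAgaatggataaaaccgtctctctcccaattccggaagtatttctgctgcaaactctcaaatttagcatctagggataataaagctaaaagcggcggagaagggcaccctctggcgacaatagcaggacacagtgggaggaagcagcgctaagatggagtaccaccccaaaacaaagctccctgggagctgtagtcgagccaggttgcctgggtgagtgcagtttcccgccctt
Cxcl1: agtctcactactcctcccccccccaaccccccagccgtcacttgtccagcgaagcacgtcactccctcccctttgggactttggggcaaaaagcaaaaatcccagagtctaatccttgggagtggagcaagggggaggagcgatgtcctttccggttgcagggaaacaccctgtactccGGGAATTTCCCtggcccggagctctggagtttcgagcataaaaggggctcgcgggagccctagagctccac
Rsad2: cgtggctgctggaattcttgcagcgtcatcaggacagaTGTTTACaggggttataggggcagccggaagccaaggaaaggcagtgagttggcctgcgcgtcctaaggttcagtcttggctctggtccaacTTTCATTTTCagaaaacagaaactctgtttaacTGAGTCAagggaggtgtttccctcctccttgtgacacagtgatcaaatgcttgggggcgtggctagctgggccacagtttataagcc
Btg1: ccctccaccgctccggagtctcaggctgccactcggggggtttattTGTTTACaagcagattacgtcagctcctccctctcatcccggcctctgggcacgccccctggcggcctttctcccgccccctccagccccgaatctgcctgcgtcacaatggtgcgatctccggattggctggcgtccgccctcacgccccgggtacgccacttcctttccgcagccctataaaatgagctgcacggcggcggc

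Shares of promoters with a motif are given as a description. A promoter was found for 82 of the 106 higher genes, 42 of the 49 lower genes and 7040 of all 8626. The FoxO letters TGTTTAC were present in 7.32% of the higher, 4.76% of the lower and 2.43% of all promoters, in the higher genes Axl, Col6a1, Dlk1, Rasa1, Retnlg and Rsad2 and the lower genes Btg1 and Stard5. The C/EBP letters TTNNGCAA were in 13.4%, 9.52% and 7.78%, the ISRE, searched by its consensus, in 7.32%, 0% and 2.64%, and the NF-kB consensus in 9.76%, 2.38% and 4.43%. The STAT letters TTCNNNGAA were in 4.88%, 4.76% and 5.81%, and the AP-1 letters TGANTCA in 3.66%, 2.38% and 4.47%. Matches of different motifs may overlap. The genes named here for a motif were chosen after their values were seen where they are described nowhere else.

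Paneth cell genes had the highest median of all lists, and the detected alpha-defensins among them read far above background in both TNBS pools. Paneth cells secrete alpha-defensins and lysozyme in the crypts of the small intestine and are normally absent from mouse colon. Of 17 Paneth cell genes 10 had a probe, 8 were detected and 7 were at least 2-fold higher in Foxo4_KO, with a median of 1.65 and summed signals of 10145 in WT and 32610 in Foxo4_KO. Defa31 read 6.51, 6.55 and 10.07 across the WT pools and 8.50, 7.08 and 13.05 across the Foxo4_KO pools (7.93-fold in TNBS). Its second probe read 9.43 and 12.30. Defa3 read 6.58, 6.64 and 12.02 across the WT pools and 8.65, 7.61 and 13.42 across the Foxo4_KO pools (2.64-fold), with a dim second probe at 6.59 and 6.82. The alpha-defensins are near-identical copies, so a probe may read several of them and the genes are not independent.

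Lysozyme of Paneth cells, Lyz1, read 7.48 (WT) and 10.03 (Foxo4_KO) after TNBS (5.89-fold) and 6.49 to 6.84 in the other 4, and its second probe read 6.63 and 6.87. Defa24 read 8.78 and 11.15 (5.16-fold), Defa23 9.19 and 11.08 (3.71-fold, with a second probe at 6.58 and 7.18), and Defa20 10.98 and 11.76 (1.71-fold). Pla2g2a, a phospholipase that kills bacteria, read 6.91, 9.55 and 10.64 across the WT pools and 7.85, 9.22 and 11.94 across the Foxo4_KO pools. Itln1, the lectin intelectin, read 6.69 and 8.02 (2.51-fold), and the Paneth cell protease Mmp7 was below background in both TNBS pools. All 8 detected genes also read higher in the WT TNBS pool than in the other WT pools, Itln1 by the least (6.69, against 6.52 and 6.5).

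Genes of the ileal epithelium were measured beside them. Of 18 ileal enterocyte genes 10 were detected and 2 were at least 2-fold higher in Foxo4_KO, with a median of 0.41 and summed signals of 7935 in WT and 13489 in Foxo4_KO. Fabp6, the bile acid carrier of ileal cells, read 6.71, 6.90 and 11.74 across the WT pools and 8.09, 7.40 and 12.15 across the Foxo4_KO pools, so both TNBS pools were high. Apoa1, an apolipoprotein of lipid export, read 10.55 and 11.80 after TNBS, and Anpep, a brush border peptidase, 10.32 and 11.59. Apoa4 read 7.31 and 8.30 and the glucose transporter Slc5a1 9.25 and 10.04, while Rbp2 (8.89 and 8.67) and Apob (7.51 and 7.38) were no higher. Slc10a2, the ileal bile acid transporter, was below background in both pools. Unequal small-intestinal tissue in the 2 TNBS pools was not tested as a source of the Paneth cell values.

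**Figure D3:**
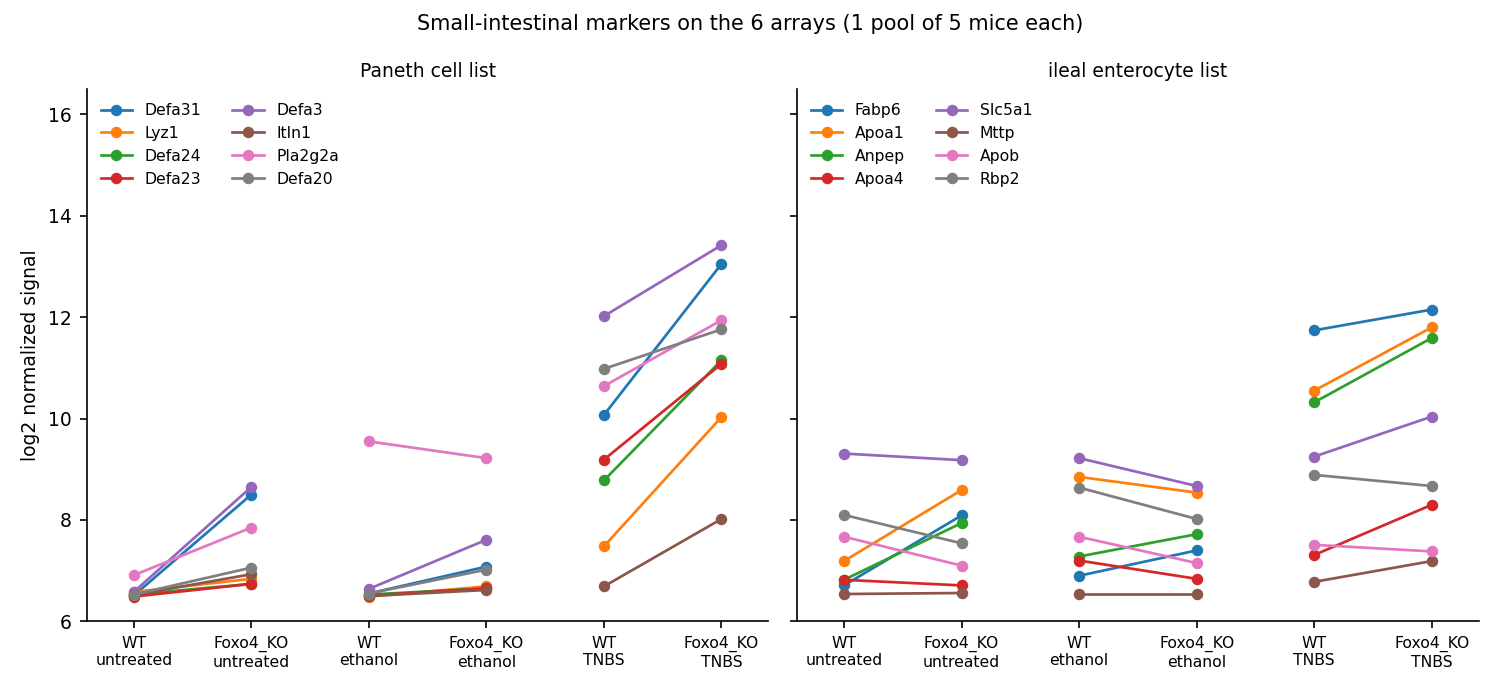
Normalized log2 signal of 8 Paneth cell genes (left) and 8 ileal enterocyte genes (right) in the 6 pools, with lines joining the WT and Foxo4_KO pools of each treatment. Most alpha-defensins and Fabp6 are near background in WT pools without TNBS and high in both TNBS pools, with Defa31 at 10.07 in WT and 13.05 in Foxo4_KO.

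Of 12 genes of pancreatic acinar cells, 8 were detected and 2 were at least 2-fold higher. Amylase Amy2a5 was at least 3.75-fold higher (6.67 in WT and 8.58 in Foxo4_KO) and chymotrypsinogen Ctrb1 at least 2.46-fold (6.67 and 7.97), both below background in the WT TNBS pool. The lipase-related Pnliprp1 was at least 1.91-fold higher (6.66 and 7.61). Cpa1, Cela2a and Cela3b were within 0.22 of the WT pool and near background. The zymogen granule gene Sycn, which was bright in all pools, read 12.66 and 11.92. The list's median was 0.20, −0.74 with genes detected on both arrays, where Sycn alone remained, and 0.95 with the deposited normalized values.

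Genes of the mature colonocyte differed in both directions. Of 22 surface colonocyte genes 17 were detected, 2 were past 2-fold on the lower side and 0 on the higher, with a median of −0.12 (median scaling gave 0.29, or 0.03 above its median gene). Aqp8, the water channel of the colonic surface, read 12.45, 11.78 and 11.62 across the WT pools and 12.58, 12.63 and 9.98 across the Foxo4_KO pools (−1.64 in TNBS, deposited signals 3225 and 1437). The Foxo4_KO TNBS pool was thus the lowest of the 6, although in the other pairs the Foxo4_KO pool read higher. The phosphate transporter Slc20a1 read 8.58 and 7.10 with its brightest probe and 6.81 and 6.62 with the second. Slc37a2, a sugar phosphate carrier, read 11.44 and 10.50, with a second probe near background (6.66 and 6.64). The chloride exchanger Slc26a3 (12.75 and 12.49) and the carbonic anhydrase Car4 (11.02 and 10.65) differed less. In the other direction the sodium-proton exchanger Slc9a3 read 10.50 and 11.32 and the bile acid exporter subunit Slc51b 8.90 and 9.56.

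Among genes of sodium absorption and the aldosterone response, 11 of 14 were detected, 0 were at least 2-fold higher and 2 lower, with a median of −0.30 (median scaling gave 0.19, or 0.07 below its median gene). Fxyd4, which tunes the sodium pump, read 9.90, 11.07 and 11 across the WT pools and 8.12, 7.79 and 9.49 across the Foxo4_KO pools, and its second probe read 8.09 and 7.10 after TNBS. Atp12a, a subunit of the colonic proton-potassium pump, read 10.29 and 9.22. The beta subunit of the epithelial sodium channel, Scnn1b, read 8.89 and 8.92 after TNBS, against differences of −1.96 in the ethanol and −1.32 in the untreated pair, and the gamma subunit Scnn1g differed by −0.40, against −2.03 and −1.88. Whether these differences depended on treatment was not tested. Hsd11b2, which shields the mineralocorticoid receptor from glucocorticoids, read 10.57 and 9.87 (second probe 9.46 and 8.28). The kinase Sgk1 read 12.41 and 12.46 with its brighter probe and 7.96 and 7 with the dimmer.

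Of 18 enteroendocrine genes 13 were detected and 1 was at least 2-fold lower, with a median of −0.06 (median scaling gave 0.20, or 0.06 below its median gene). Insl5, a hormone of colonic L cells, read 8.91, 10.13 and 10.41 across the WT pools and 8.30, 8.97 and 8.85 across the Foxo4_KO pools (−1.56 in TNBS). Ppy, pancreatic polypeptide, which is outside the list, read 9.27 and 7.80. Secretin, Sct, read 11.94 and 11.24, peptide YY, Pyy, 11.61 and 11.17, and proglucagon, Gcg, 8.93 and 8.75. Chga, the general granule protein of these cells, read 6.90 and 6.84, and Chgb 8.91 and 9.13. The hormones thus did not differ to the same extent.

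The detected goblet cell, crypt and general epithelial genes differed by less than 2-fold. Of 16 goblet cell genes 11 were detected and 0 passed 2-fold. Muc2, the gel-forming mucin, read 14.83 in both pools, Tff3 13.12 and 13, Clca1 13.51 and 13.28, and Fcgbp, which binds the mucin gel, 9.58 and 9.04. Of 14 stem and progenitor genes 8 were detected and 0 passed 2-fold, with Lgr5, Ascl2 and Olfm4 below background in both pools, and of 27 cell cycle genes 20 were detected and 0 passed 2-fold. The largest difference of the cell cycle list was that of the mitotic kinase Aurka (7.51 and 8.16), while Top2a read 7.20 and 7.18. Epcam, an adhesion protein of all epithelium, read 6.98 and 6.97, Krt18 10.98 and 10.97, and the microvillus protein Vil1 12 and 11.48. Of 11 such genes 10 were detected and 0 passed 2-fold, with a median of −0.17 (median scaling gave 0.18, or 0.07 below its median gene). Of these 10, 1 read higher and 9 lower in Foxo4_KO, with summed signals of 36233 in WT and 30512 in Foxo4_KO.

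Claudin-2 stood out among the 15 detected of 21 junction genes. Cldn2, which forms pores for cations and water and is known to be high in inflamed bowel, read 9.40, 10.22 and 10.13 across the WT pools and 9.34, 9.56 and 11.31 across the Foxo4_KO pools (2.26-fold in TNBS). The Foxo4_KO pool was thus lower after ethanol and higher after TNBS. The sealing claudins Cldn4 (10.49 and 9.91), Cldn7 (12 and 11.22) and Cldn3 (12.43 and 12.26), the last of these listed with the general epithelial genes as is Cldn7, read lower in Foxo4_KO, each by less than 2-fold. The scaffold Tjp1 (6.59 and 6.64) was near background and occludin, Ocln, read 7.34 and 7.07. Beta-catenin, Ctnnb1, read 9.63 and 10.14, with a second probe at 8.63 and 9.29.

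Genes listed for squamous epithelium, the type of anal and skin tissue, were measured too. Of 16 squamous epithelial genes 7 were detected, 0 were at least 2-fold higher and 2 lower, with a median of −0.47. Median scaling gave −0.08, or 0.34 below its median gene, with 0 genes at least 2-fold lower. Summed signals were 2437 in WT and 1354 in Foxo4_KO. Ly6g6c read 10.40, 9.19 and 9.68 across the WT pools and 11.07, 10.64 and 8.11 across the Foxo4_KO pools, and Casp14, a protease of cornifying cells, 9.05, 8.80 and 9.02 across the WT pools and 7.33, 7.53 and 7.86 across the Foxo4_KO pools. The keratin Krt14 of basal cells read 8.82 and 8.20 after TNBS and 6.65 to 7.14 in the other pools, while Krt5, Trp63 and Krt4 were below background in both TNBS pools. Krt14, Ly6g6c and Casp14 differed by −0.61, −1.57 and −1.16 after TNBS, where 6 of the 7 detected members read lower in Foxo4_KO. The same genes differed by 0.00, 1.45 and −1.27 in the ethanol pair and by −0.07, 0.66 and −1.72 in the untreated pair. The list is not read as an amount of squamous tissue, and the part of such epithelium in these values was not tested. The xenobiotic list had 14 of 19 genes detected, 0 at least 2-fold higher and 3 lower, with a median of −0.12 (median scaling gave 0.12, or 0.14 below its median gene). Cbr2, a carbonyl reductase and the lowest of the 8626 genes, read 9.56, 10.35 and 10.45 across the WT pools and 9.44, 10.21 and 8.67 across the Foxo4_KO pools (−1.78 in TNBS, deposited signals 1500 and 682.8). Adh1, an alcohol dehydrogenase that also oxidises retinol, read 11.27 and 9.85 after TNBS, and the cytochrome Cyp2d10 9.77 and 8.62. Aldh1a1, which makes retinoic acid, stood the other way at 8.47 and 9.29. The sulfotransferase Sult1a1 read 12.49 and 12.73 with its brightest probe and 9.50 and 7.82 with the second, so its direction depended on the probe.

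Energy metabolism differed little as a whole. Of 21 fatty acid oxidation genes 16 were detected and 0 passed 2-fold, although Acads, the short-chain acyl-CoA dehydrogenase, came close at 8.04 and 7.05, and Acadm read 9.90 and 9.34. The brightest probe of Acaa2 read 11.73 and 12.02, and the others 8.77 and 7.69, and 8.32 and 7.67. Of 16 TCA cycle genes 12 were detected and 0 passed 2-fold, with Suclg1 at 9.61 and 8.67 (second probe 6.66 and 6.65) and Mdh2 at 7.60 and 8.29. Of 21 glycolysis and hypoxia genes 15 were detected, 0 were at least 2-fold higher and 1 lower, the enolase Eno3 (10.92 and 9.32), and the list's median was −0.22 (median scaling gave 0.05, or 0.21 below its median gene). Scd1, which desaturates fatty acids, read 10.55 and 9.18, and Hao2, an oxidase of hydroxy acids, 9.37 and 8.20. Of 14 clock genes 12 were detected and 0 passed 2-fold, with Clock at 8.70 and 8.20 and Dbp at 9.41 and 9.23.

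Other lower genes belonged to no list. Prmt1, an arginine methyltransferase of histones and RNA-binding proteins, read 9.48 and 7.83 with its 1 detected probe. Mtch2, a carrier-like protein of the outer mitochondrial membrane, read 10.09 and 8.47, but its second probe read 8.98 and 8.84. The histone H2B genes H2bc13 (10.18 and 8.85) and H2bc7 (10.95 and 9.67, second probe 10.75 and 9.69) were lower, as were H2bc15, H2bc9 and H2bc11, chosen after their values were seen (−1.12, −1.11 and −1.05). These genes are near-identical, so their probes may read the same transcripts and they count as uncertain. Mxd1, an antagonist of Myc, read 9.30 and 8.03 with the brighter probe and 6.76 and 6.70 with the dimmer, and Tspan3, a tetraspanin, 9.05 and 7.85, and 6.56 and 6.63 with its dimmer probe. Also among the 25 lowest named genes were Acta1, Ano10, Tsc22d1, Cox7a1 and Arl2bp (−1.26 to −1.15).

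Some stromal genes read at least 2-fold higher in the Foxo4_KO pool. Of 20 fibroblast and collagen genes 14 were detected, 6 were at least 2-fold higher and 0 lower, with a median of 0.76 and summed signals of 4291 in WT and 8982 in Foxo4_KO. Col4a1, a chain of basement membrane collagen, read 8.02, 7.65 and 8.08 across the WT pools and 7.93, 9.19 and 10.01 across the Foxo4_KO pools (3.80-fold in TNBS), and its partner Col4a2 9.52 and 10.78 after TNBS. Pdgfra, a receptor of platelet-derived growth factor on fibroblasts, read 7.38 and 8.90, the matrix protein Fbln1 7.17 and 8.49 (other probes higher by 0.93 and 0.10), Col6a1 8.33 and 9.46 (second probe 7.80 and 8.93) and decorin, Dcn, 10.11 and 11.15. The 3 other detected probes of Dcn, all dimmer, differed by 0.24, −0.05 and 0.14, and the mean of its probes by 0.34. Col1a1 (7.08 and 7.62) and Col3a1 (6.58 and 6.67), the collagens of scar, differed less, and Col1a2 was below background in both pools. Outside the list, Tgfbi read 8.01 and 9.68 (second probe 6.71 and 6.97), Igfbp5 8.34 and 9.96 (second probe 8.30 and 9.74) and Col18a1, the source of endostatin, 8.03 and 9.62. The gelatinase Mmp2 (7.90 and 8.97) was the 1 gene past 2-fold of 12 detected matrix proteases and inhibitors. Timp2 read 7.18 and 8.10 and Timp1 7.34 and 7.89. All 12 read higher in Foxo4_KO, but Mmp3, Mmp13 and Adamts4 were detected in that pool alone. For such genes the detection rule favours a higher reading there.

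Some smooth muscle genes did so too. Of 18 genes 13 were detected, 6 were at least 2-fold higher and 0 lower, with a median of 0.84 and summed signals of 11290 in WT and 21135 in Foxo4_KO. Actg2, the actin of visceral muscle, read 8.78, 9.75 and 11.70 across the WT pools and 9.17, 12.99 and 12.90 across the Foxo4_KO pools, so the WT TNBS pool was also above the other WT pools. Acta2 read 11.62 and 12.65 after TNBS, the myosin Myh11 7.46 and 8.62, Tpm2 9.89 and 11.06 and filamin, Flna, 7.89 and 9.26. Csrp1, a LIM protein of muscle, was below background in the WT TNBS pool and at least 4.35-fold higher in Foxo4_KO (6.51 and 8.80). The brighter-probe values of Acta2, Tpm2 and Flna were not matched by their dimmer probes, which differed by 0.02 and 0.29, −0.17 and 0.02. Mylk (10.74 and 10.62) and Tpm1 (9.96 and 9.90) were no higher. In the ethanol pair the medians of the smooth muscle and fibroblast lists were 1.57 and 1.1, and in the untreated pair −0.01 and −0.04. Acta1, the actin of skeletal muscle, read 7.93 in WT and 6.68 in Foxo4_KO. How much muscle was taken with the mucosa was not tested.

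Blood and vessel genes were measured too. Of 15 endothelial genes 12 were detected and 1 was at least 2-fold higher, the VEGF receptor Flt1 (6.94 and 7.95), with Esam at 7.30 and 8.11 and Pecam1 at 6.99 and 7.31. Haemoglobin Hba-a1 read 11.13 and 12.04 and Hbb-b2 7 and 8.02. Hba-a1 differed by 1.58 in the ethanol and −1.42 in the untreated pair. Of the 3 detected genes of the red cell list, the other was Alas2 (6.57 and 6.81), which was detected in the Foxo4_KO TNBS pool but not in the WT TNBS pool. Outside the list and chosen after their values were seen, Hbb-bs read 11.27 and 12.44 and Hbb-bt 11.27 and 12.31 with their brightest probes. The other detected probes differed by 0.24 to 0.93 for Hbb-bs and by 0.66 to 1.06 for Hbb-bt. How much blood the pools held was not tested. The adipocyte genes Adipoq (8.88 and 8.81) and Lpl (9.43 and 9.38) hardly differed, and both TNBS pools had more Adipoq than the other 4 (6.94 to 7.10).

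Interferon-responsive genes were higher in part. Of 25 type I interferon response genes 16 were detected, 4 were at least 2-fold higher and 0 lower, with a median of 0.26, beside 0.80 in the ethanol and 0.99 in the untreated pair. Ifit2, which blocks viral translation, read 6.72, 6.74 and 6.85 across the WT pools and 8.34, 8.49 and 8.90 across the Foxo4_KO pools. Rsad2, the antiviral enzyme viperin, read 7.24, 7.33 and 7.43 across the WT pools and 9.74, 9.21 and 9.28 across the Foxo4_KO pools. For these genes, whose promoters are printed above, all Foxo4_KO pools lay above all WT pools. Apol9a read 6.91 and 8.29 after TNBS, the membrane protein Ifitm3 9.70 and 10.83 (second probe 8.74 and 9.29) and Oas2 6.76 and 7.65.

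Other interferon genes differed in the pools without TNBS and hardly in the TNBS pair. Irf7, the factor that amplifies interferon, read 8.75, 8.12 and 8.27 across the WT pools and 9.80, 9.50 and 8.27 across the Foxo4_KO pools, and Ifi27l2a 6.90, 7.12 and 8.25 across the WT pools and 10.62, 10.48 and 8.61 across the Foxo4_KO pools. Bst2, which tethers virus to cells, read 7.26 in WT and 7.14 in Foxo4_KO after TNBS, against 6.68 and 7.87 in untreated pools. Whether the genotype difference of these genes depended on treatment was not tested. Of 11 interferon-inducible GTPases 6 were detected, 1 passed 2-fold and all 6 read higher, with Irgm2 at 8.37 and 9.60, Igtp at 7.55 and 8.37 and Irgm1 at 7.90 and 8.56. Ifit1, Ifit3 and Mx1 were below background in both TNBS pools.

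MHC class II genes showed a like split. Of 10 genes 7 were detected and 2 were at least 2-fold higher, with a median of 0.25 and summed signals of 1064 in WT and 2453 in Foxo4_KO. The invariant chain Cd74 read 9.89, 8.97 and 8.66 across the WT pools and 10.86, 11.24 and 10.49 across the Foxo4_KO pools (3.58-fold in TNBS), and H2-Ab1, a chain that presents peptide to helper T cells, 7.71, 7.07 and 7.19 across the WT pools and 9.07, 9.31 and 8.75 across the Foxo4_KO pools (2.95-fold). Their dimmer probes differed by 0.21 and 0.47. Cd74 weighed most in the summed signals of the list. H2-DMb1, which loads peptide, read 6.91 and 7.39, and H2-Aa and H2-Eb1 were below background in both pools. All 13 genes of MHC class I and the immunoproteasome were detected and 0 passed 2-fold, with the subunits Psmb8 (10.80 and 11.72, other probes higher by 0.55 and 0.11) and Psmb9 (9.34 and 9.95) higher and the activator Psme2 (9.14 and 8.36) lower in Foxo4_KO.

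The listed markers of other leukocytes differed by less than 2-fold, with 1 exception. Of 25 monocyte and macrophage genes 14 were detected and 1 passed 2-fold, Laptm5, a lysosomal protein of blood cells (9.29 and 10.32). All 14 read higher in Foxo4_KO, but some, such as Adgre1 (6.57 and 6.63) and Arg1 (6.65 and 6.77), were detected in that pool alone. In any list, the detection rule favours a higher reading for such genes. The summed signal of the 14 genes was 2536 in WT and 3626 in Foxo4_KO. Cd14, the lipopolysaccharide receptor, read 9.19 and 9.61, Fcgr3 6.73 and 7.23 and Lyz2 7.17 and 7.48, while Ccr2, Tyrobp, Itgax and Fcgr1 were below background in both pools. Of 19 T and NK cell genes 8 were detected and 0 passed 2-fold (summed signals 2012 and 2033), and of 15 B and plasma cell genes 8 were detected and 0 passed 2-fold (3186 and 3246). In these lists 6 of 8 and 5 of 8 members read higher in Foxo4_KO, and 1 bright member weighed most in each sum, Cd8b1 (10.36 and 10.30) and Blnk (11.25 and 11.23). Cd3e read 6.72 and 6.91, Cd79b 6.86 and 7.06 and Mzb1 of plasma cells 6.83 and 7.25, where the ethanol pair differed by 0.40, 1.59 and 1.57. Of 11 mast cell genes 4 were detected and 0 passed 2-fold, and of 7 eosinophil genes 5 had a probe and 0 were detected. Acod1, which makes itaconate in activated macrophages and was also picked with its values known, read 6.77 and 8.25. The part that cell numbers played in the inflammatory genes was not tested.

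Early response and stress genes were mixed. Of 13 immediate early genes 8 were detected and 3 were at least 2-fold higher, with a median of 0.45: Dusp1, a phosphatase that ends MAP kinase signals (9.15 and 10.37), Egr1 (8.81 and 9.97) and Ier3 (8.48 and 9.55). Fos read 9.51 and 9.88 and Jun 7.83 and 7.65. Of 15 ER stress genes 13 were detected and 1 passed 2-fold, asparagine synthetase Asns (7.73 and 8.79), with the chaperone Hsp90b1 at 10.18 and 11.17 and Pdia4 at 9.24 and 8.74. Of 16 antioxidant genes 12 were detected and 0 passed 2-fold, with the glutathione peroxidase Gpx2 at 12.45 and 13.31 and the transferase Gstm1 at 9.79 and 9.13. The secreted factor Nenf read 8.01, 7.68 and 7.98 across the WT pools and 10.58, 10.58 and 9.94 across the Foxo4_KO pools, so it separated the genotypes in each treatment. Maf, a factor of macrophages and lymphocytes, read 7.47 and 9.11.

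The lists can be read side by side against all 8626 genes, whose median difference was 0.005 in the TNBS pair, −0.016 in the ethanol and −0.013 in the untreated pair. In all, 53 of the 106 higher and 12 of the 49 lower genes belonged to a list. Of the 40 lists with at least 5 detected members, those of Paneth cells (1.65), smooth muscle (0.84), fibroblasts and collagen (0.76) and interferon-inducible GTPases (0.65) had the highest medians in the TNBS pair. Squamous epithelium (−0.47) and sodium absorption (−0.30) had the lowest. Under median scaling these 2 became −0.08 and 0.19, or 0.34 and 0.07 below the median gene there. The lists share some genes, so their medians are not independent.

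**Figure D4:**
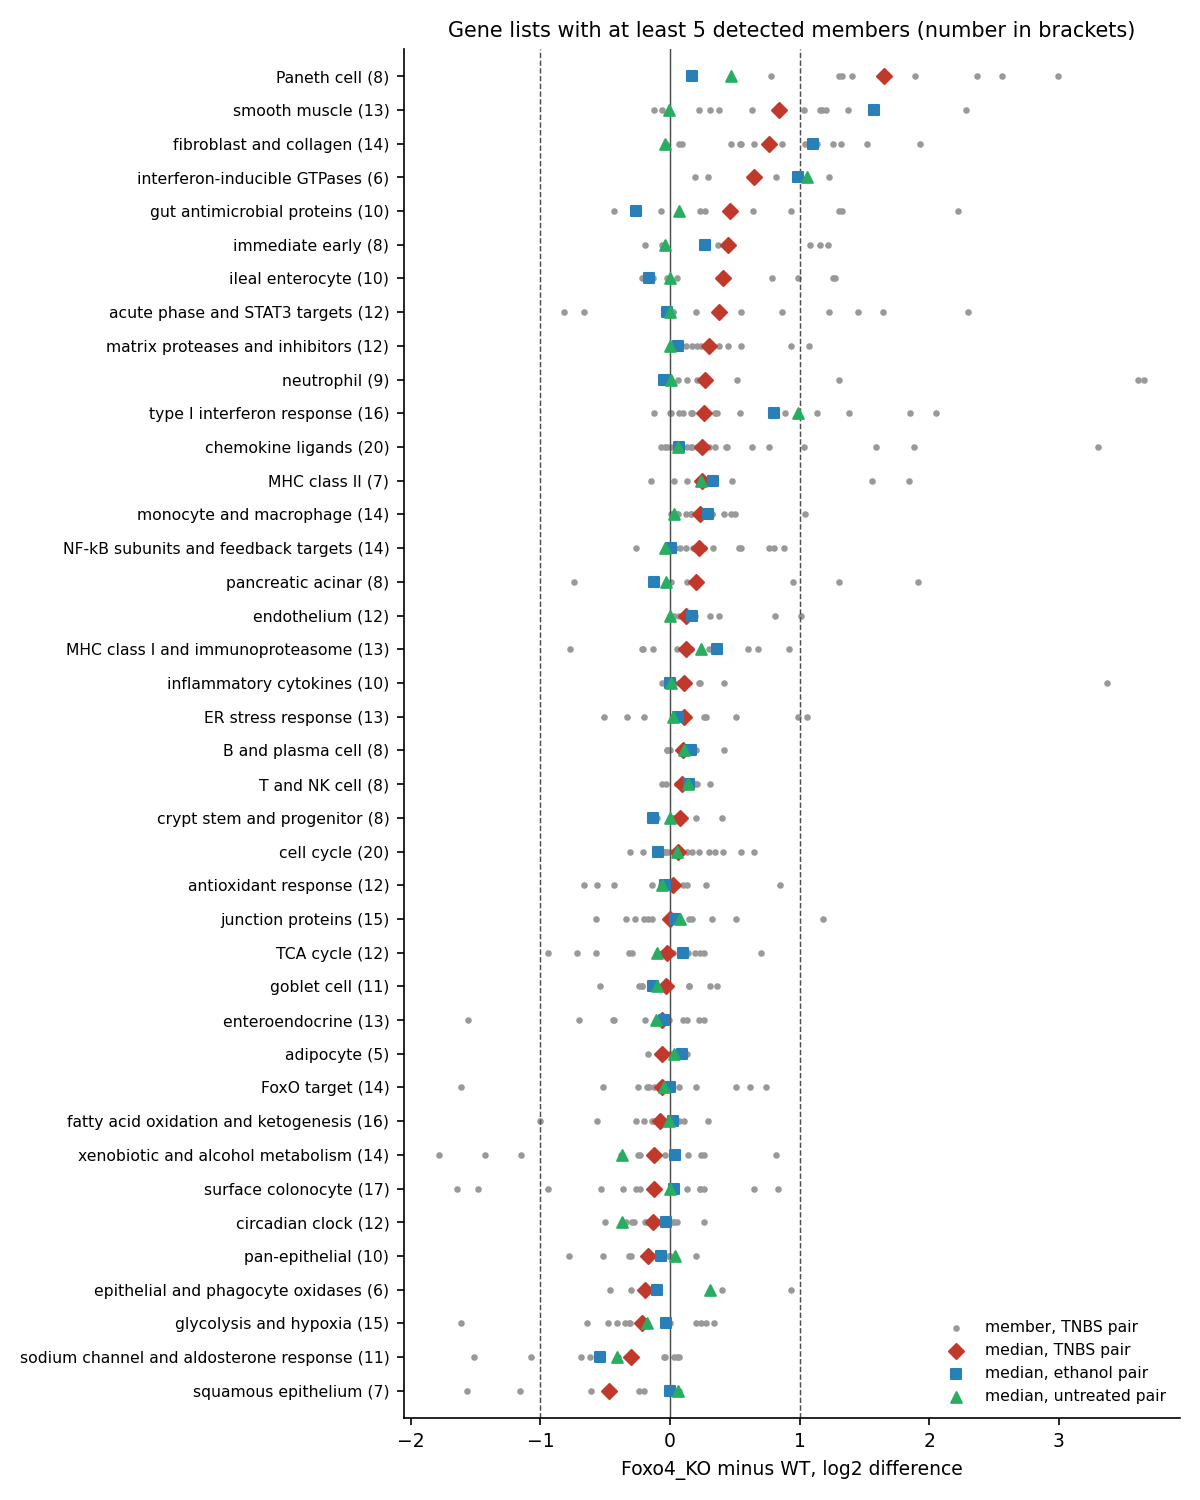
Log2 difference (Foxo4_KO minus WT) of the detected members of 40 gene lists in the TNBS pair (grey points), with the list median in the TNBS (red diamond), ethanol (blue square) and untreated pair (green triangle). The Paneth cell median is highest in the TNBS pair (1.65) and lower in the ethanol (0.17) and untreated pair (0.47), while the type I interferon median is lower in the TNBS pair (0.26) than in the others.

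The 155 genes were also read in the pairs without TNBS, which share no array with the TNBS pair. Among the same 8626 genes, the ethanol pair had 96 past 2-fold on the higher side (1.11%) and 27 lower (0.313%), and the untreated pair 40 (0.464%) and 17 (0.197%). Of the 106 higher genes, 37 (34.9%) were also at least 2-fold higher in the ethanol pair, which is 38.5% of its 96, and 16 (15.1%) in the untreated pair, which is 40% of its 40. In both were 11, Ifit2, Nenf, Rsad2, Lgals9, H2-Ab1, Apol9a, Basp1, Dlk1, Irgm2, Coro1a and Laptm5, of which Lgals9, Basp1, Dlk1 and Coro1a were chosen after their values were seen. Another 45 (42.5%) were higher by under 0.5 in both other pairs or not higher, among them S100a9, Il1b, Ccl4 and Lcn2, as were 8225 (95.4%) of all 8626 genes. Of the 49 lower genes, 9 (18.4%) were also at least 2-fold lower in the ethanol pair, which is 33.3% of its 27, and 4 (8.16%) in the untreated pair, which is 23.5% of its 17. In both were 2, Casp14 and Fxyd4, and 21 (42.9%) were lower by under 0.5 in both other pairs or not lower, among them Aqp8, Cbr2 and Eno3, as were 8327 (96.5%) of all 8626.

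**Figure D5:**
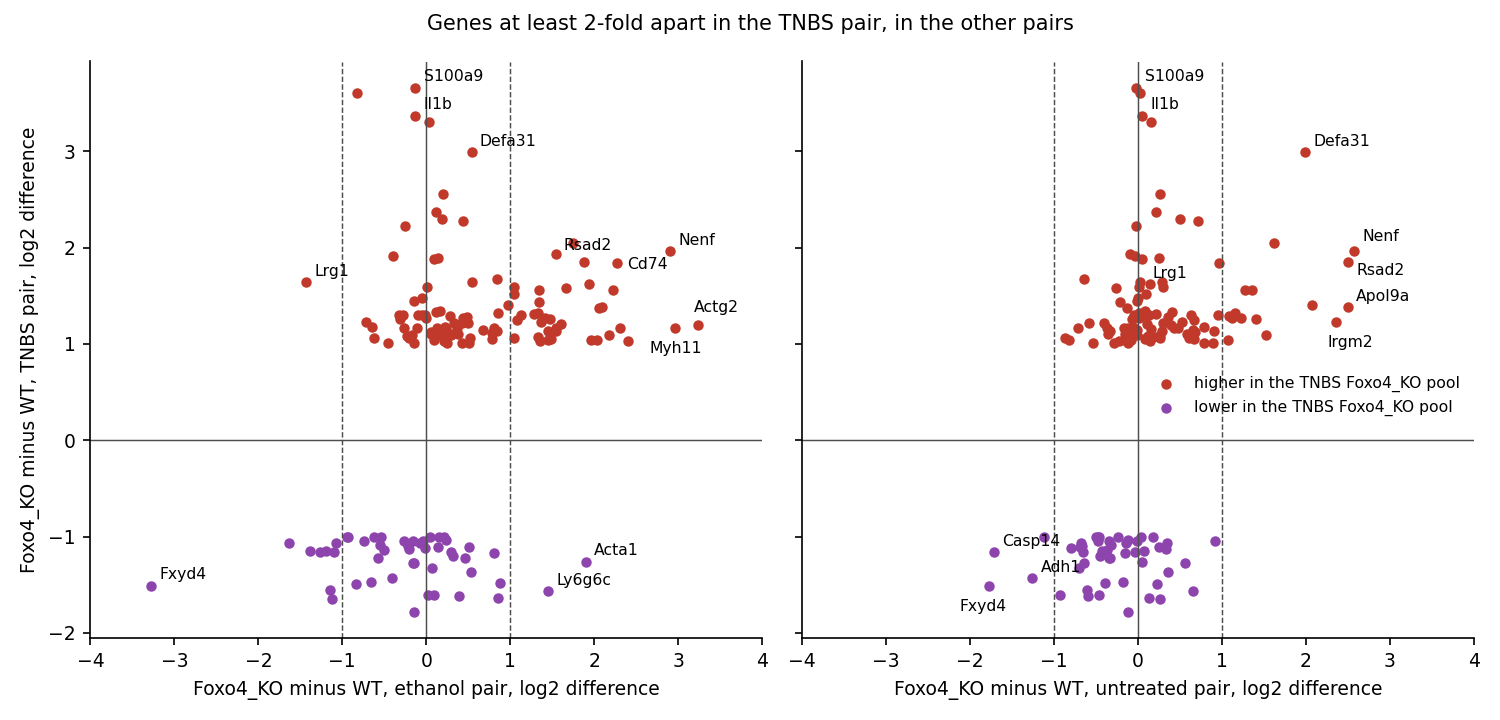
Log2 difference (Foxo4_KO minus WT) in the TNBS pair (y axis) of the 155 genes at least 2-fold apart there, against their difference in the ethanol pair (left) and the untreated pair (right). S100a9, Il1b and Ccl4 lie near 0 on both x axes, and Ifit2, Rsad2 and Nenf lie on the same side in each pair.

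Genes named as below background, and Irf7, Bst2, Pigr, Krt18, Mylk, Tpm1 and Stfa2, were chosen after their values were seen. Probes of the same gene gave a last check on the genes at least 2-fold apart. Of the 106 higher genes, 34 had another detected probe, every other probe had the same sign in 27 and was also at least 2-fold higher in 3. Of the 49 lower genes, 13 had another detected probe, with the same sign in 11 and at least 2-fold lower in 3. The reason for the disagreement between probes was not tested.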

How the data were processed

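RNA of 6 pools of colonic mucosa, each of 5 mice, was labelled and hybridised to 1 Illumina bead array a pool, per the labels' protocols. The unnormalized table holds mean bead intensities without background subtraction, as deposited, and a detection score headed as a p-value that rises with signal, a fraction taken here as 1 minus the detection p, since the deposited columns had a Spearman correlation of 0.997 to 0.998 with signal. The second deposited table holds intensities that the authors quantile-normalized. For the scanner software and genome build, nothing is stated by the sources used here.

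Rows of the 2 tables were joined by their profiles over the 6 arrays, which placed 46572 probes, 99.87% of the normalized table. Of 8029 joined targets named by an Entrez number, 7954 (99.1%) equalled the probe's own number. Background correction, quantile normalization and the log2 step used neqc of limma 3.58.1 (R 4.3.3, offset 16). The deposited intensities, as log2, were an alternative. A probe with 1 gene symbol counted (29943 of the joined probes), and the brightest probe over the 6 arrays stood for its gene. The score minimum was 0.99. Tables were made with Python 3.11.15, pandas 2.3.3 and matplotlib 3.10.9, and the join and the normalization were tested on simulated data. Other settings tried were offset, scaling, filter, fold and probe rule.

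The genes named were drawn from the 25 highest and 25 lowest, leaving out gene models without a gene name, the FoxO family, and from each list the first 3 members and the 6 others with the largest absolute difference, with the exceptions stated. The gene lists, members and rules were chosen with earlier results of these data known. Each comparison has 1 pool a side, so no test was made, and precision is limited by how few arrays there are.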

Additional observations from a re-analysis of the deposited data

Results flagged for a closer look

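In 3 of the genes at least 2-fold apart after TNBS, the ethanol pair differed by at least 2-fold the other way, and the difference between the pairs was not tested. Lrg1 differed by 1.64 (Foxo4_KO minus WT, log2) after TNBS and by −1.43 after ethanol. Acta1 differed by −1.26 after TNBS and 1.90 after ethanol. Ly6g6c differed by −1.57 after TNBS and 1.45 after ethanol.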

How the results depend on the processing

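No paired analysis was possible because each group was 1 pool, and for the same reason no pool could be left out. The 106 higher and 49 lower genes became 555 and 9 under median scaling, which moved the median gene to 0.258, and 235 and 18 relative to that gene, a setting chosen after seeing the data. At 1.5-fold they were 342 and 271, and at 3-fold 24 and 6. With the deposited normalized values they were 107 and 41, of which 69 and 23 were shared, and with the mean of a gene's probes 82 and 43. The neutrophil median of 0.27 became 1.12 with the deposited values and 1.3 with genes detected on both arrays, the pancreatic acinar median of 0.20 became 0.95 and −0.74, and the MHC class II median of 0.25 became 1.02 with genes detected on both arrays, where fewer genes enter. Median scaling turned 14 list medians from negative to positive. Detection on both arrays changed the sign of 2 (pancreatic acinar, junction) and the mean of probes of 1 (goblet). Of 345 named genes, 17, 55 and 17 moved by at least 1.5-fold with the deposited values, median scaling and the mean of probes, and none of those at least 2-fold apart changed sign under the settings tried. Dim genes near background are compressed, so their differences are understated.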
